A study of Homo sapiens with 6 samples.

Results

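Amino acid transporters of the SLC1, SLC3, SLC7, SLC36, SLC38 and SLC43 families were examined in U251 cells that overexpress PD-L1 and in vector control cells. Members were the protein-coding genes whose symbol is one of these family names followed by digits and optional letters, and the rule itself uses no expression value. The rule found 41 genes among 57773 Ensembl IDs. Of these, 40 encode transporters or their heavy chains, and 1, SLC7A6OS, is named for lying opposite SLC7A6 and is not a transporter. The pseudogene SLC7A15P was left out by the rule. TMEM104, which RefSeq lists as SLC38A12, was named TMEM104 in the table of gene names used here and is given apart from the counts.

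Mammalian cells take up amino acids through carriers that differ in substrate and coupling. SLC7A5 (LAT1), which imports large neutral amino acids such as leucine in exchange for others, reaches the cell surface only as a disulfide-linked partner of SLC3A2, the heavy chain also called CD98. SLC7A11 (xCT) uses the same heavy chain to import cystine in exchange for glutamate, and glioma cells are known for releasing glutamate by this route. SLC1 members take up glutamate or exchange small neutral amino acids, SLC38 members carry glutamine and other neutral amino acids, and several SLC36 and SLC38 members act at the lysosome.

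The PD-L1 group held 3 dishes of U251, an established human glioblastoma line, stably overexpressing PD-L1 (gene CD274) from a lentivirus. The Vector group held 3 dishes of U251 with the lentiviral vector only. Both were at passage 5 to 10, kept in DMEM with 10% serum and harvested 12 h after passage. The labels do not say how many transductions or clones stand behind each line. The tests therefore compare dishes of 2 lines, whose spread may be technical. Poly-A RNA was sequenced without strand information, with 19704409, 15678989 and 19090861 counts in PD-L1 dishes 1 to 3 and 22270509, 20952894 and 18797948 in Vector dishes 1 to 3. Levels are CPM, counts scaled to library size and TMM factor, on which 3 counts are worth 0.138 to 0.185 in the 6 dishes. CD274 was at 1309, 1356 and 1234 CPM in PD-L1 dishes, against 1.56, 3.47 and 2.21 CPM in Vector dishes, as the labels say. In these bulk samples, less RNA per cell and fewer expressing cells cannot be told apart.

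PD-L1 dish 3 stood apart. It differed from PD-L1 dishes 1 and 2 by a chi-square per degree of freedom of 14.5 and 13.6, against 2.84 between dishes 1 and 2 and 4.87 to 9.15 among Vector dishes. With it left out, 3512 genes were called over the whole table, against 1384 with all 6 dishes. Values without this dish are therefore given beside the results that follow. The astrocyte list summed to 615 to 637 CPM in PD-L1 dishes and 611 to 631 CPM in Vector dishes, most of it GLUL, which averaged 504 CPM with PD-L1 and 465 CPM with Vector. Of its 5 tested genes 3 were lower (60.0%, against 7.20% of all tested genes), namely GFAP, GJA1 (1.22-fold) and FABP7 (1.99-fold). Without PD-L1 dish 3, 2 of these stayed lower and FABP7 was not called (edgeR adjusted p = 0.211). In this list GFAP averaged 1.70 ± 0.22 CPM with PD-L1 and 3.18 ± 0.56 CPM with Vector. This defining marker was thus low in both groups and lower in PD-L1 dishes (edgeR adjusted p = 0.0166). The microglia and macrophage list summed to 1.23 to 1.81 CPM in PD-L1 dishes and 2.49 to 3.22 CPM in Vector dishes. Of its 2 tested genes 1 was called lower (50.0%, against 7.20% of all tested genes). This was AIF1, at 0 to 18 counts per dish (edgeR adjusted p = 0.00919). CSF1R was also lower but not called (0.0547). Without PD-L1 dish 3, 2 of 3 tested genes were lower (against 13.8%), AIF1 (0.0071) and CSF1R (0.0221). The endothelial list summed to 2.96 to 3.80 CPM with PD-L1 and 3.13 to 4.09 CPM with Vector. Of its 2 tested genes 1 was called lower (50.0%, against 7.20% of all tested genes). This was KDR, with a log2 fold change of -1.14 (edgeR adjusted p = 0.0221). CDH5 went the other way, at 0.71, but was not called (edgeR adjusted p = 0.1509). Without PD-L1 dish 3, KDR stayed lower (edgeR adjusted p = 0.00668). Neuronal markers summed to 16.1 to 18.7 CPM with PD-L1 and 15.7 to 17.6 CPM with Vector, and 0 of 5 tested were called. Oligodendrocyte markers summed to 15.2 to 15.9 CPM with PD-L1 and 16.7 to 18.3 CPM with Vector. Among these, 1 of 3 tested genes was lower (33.3%, against 7.20% of all tested genes). This was MBP, with a log2 fold change of -0.59 (edgeR adjusted p = 0.02035). It stayed lower without PD-L1 dish 3 (edgeR adjusted p = 0.0169). The fibroblast and pericyte list, which holds the collagens COL1A1 and COL1A2, summed to 446 to 540.0 CPM with PD-L1 and 917 to 1397 CPM with Vector. In this list 4 of 6 genes were lower (66.7%, against 7.20% of all tested genes), and 4 without PD-L1 dish 3 (against 13.8%). The part of these markers in the transporter results was not tested.

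Which transporters U251 cells express was read from CPM per kb of the longest protein-coding transcript, since CPM alone favours long transcripts. The CD98 pair led. SLC7A5 was at 146 ± 9.53 CPM per kb in PD-L1 and 200.5 ± 6.07 CPM per kb in Vector dishes (mean ± SD, n = 3 each), and SLC3A2 at 148 ± 11.1 and 182 ± 5.89 CPM per kb in the same groups. In PD-L1 dishes these genes were within 1 SD of each other. SLC1A5 (ASCT2), a sodium-dependent exchanger that brings in glutamine, followed at 90.7 ± 7.89 CPM per kb in PD-L1 and 107 ± 3.89 CPM per kb in Vector dishes. The next 4 genes were SLC38A2, SLC38A1, SLC7A1 and SLC38A10, at group means from 19.1 CPM per kb upward. SLC38A9, the lysosomal arginine sensor of mTORC1, ranked 8 at 9.28 CPM per kb in PD-L1 and 9.22 CPM per kb in Vector dishes. These levels depend on the transcript chosen for the length.

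**Figure D1:**
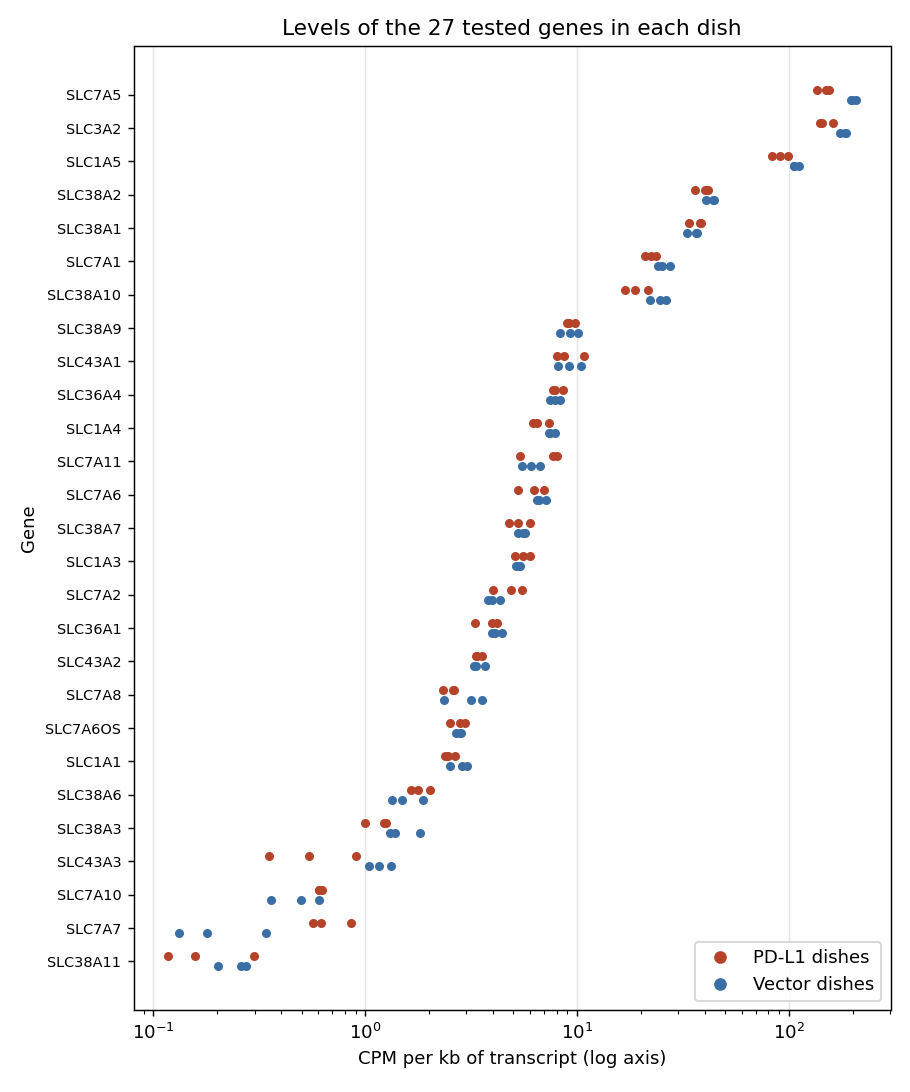
CPM per kb of transcript (log axis) of the 27 tested genes in each dish, PD-L1 dishes above Vector dishes, in order of mean level. SLC7A5, SLC3A2 and SLC1A5 lie above the other 24 genes in all 6 dishes, and SLC7A7 and SLC38A11 are at the low end.

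The members too low to test numbered 14. Their counts summed to between 1 and 58 over the 6 dishes, with no more than 20 in a dish. They include SLC1A2 (GLT-1), the main glutamate transporter of astrocytes, with 5, 7 and 4 counts in PD-L1 dishes and 5, 14 and 11 in Vector dishes. SLC38A5, a glutamine transporter, had 4, 7 and 6 counts in PD-L1 dishes and 7, 20 and 14 in Vector dishes. The neuronal and retinal glutamate transporters SLC1A6 and SLC1A7, the renal heavy chain SLC3A1 with its light chains SLC7A9 and SLC7A13, and SLC7A3, SLC7A4, SLC7A14, SLC36A2, SLC36A3, SLC38A4 and SLC38A8 complete this group. With no low-count filter all 41 members were tested and 0 of these 14 passed. Without PD-L1 dish 3, SLC1A2 and SLC38A5 reached the filter and had edgeR adjusted p of 0.503 and 0.152. SLC1A7 had 3, 4 and 7 counts in PD-L1 dishes and 0, 2 and 2 in Vector dishes, without overlap in CPM. Counts this low limit what the test could detect. The lack of a call therefore does not show that these genes were unchanged.

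Of the 27 tested members, 5 passed a false discovery rate (FDR) of 0.05 in edgeR's quasi-likelihood test over all 15818 tested genes. SLC7A5, SLC3A2, SLC38A10 and SLC43A3 fell and SLC7A7 rose. The share of members called was 18.5%, against 8.75% of all tested genes. By direction, 4 of 27 members were lower (14.8%, against 7.20% of all tested genes) and 1 was higher (3.70%, against 1.55%). The median log2 fold change (PD-L1 minus Vector) of the tested members was -0.13, against 0.02 for all tested genes. Of the 27, 18 had a value below 0 (66.7%, against 46.4% of all tested genes). The median of the members was -0.05 with an offset fitted to GC and length, against 0.03 for all genes. Without PD-L1 dish 3 it was -0.07, against 0.01. CPM did not overlap between groups for 9 members (33.3%, against 27.6% of all tested genes). Every PD-L1 dish lay below every Vector dish for 8 of them (against 15.5% of all tested genes) and above for 1, SLC7A7 (against 12.1%). An exact two-sided permutation test of single genes cannot go below p = 0.1 with 3 dishes against 3, the value it gave for each of the 5 called genes. Without PD-L1 dish 3, 8 of 29 tested members passed, 3 higher (against 7.81% of all genes tested in that fit) and 5 lower (against 13.8%), with 21.6% of all genes called. DESeq2 called 5 of 26 members, 1 higher (against 1.42% of all genes) and 4 lower (against 7.84%), with 9.26% of all genes called. With an offset fitted to GC and length, 6 members passed, 2 higher (against 6.04%) and 4 lower (against 8.65%), with 14.7% of all genes called. With upper-quartile scaling 3 passed, 1 higher (against 2.40%) and 2 lower (against 6.42%), with 8.81% of all genes called.

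**Figure D2:**
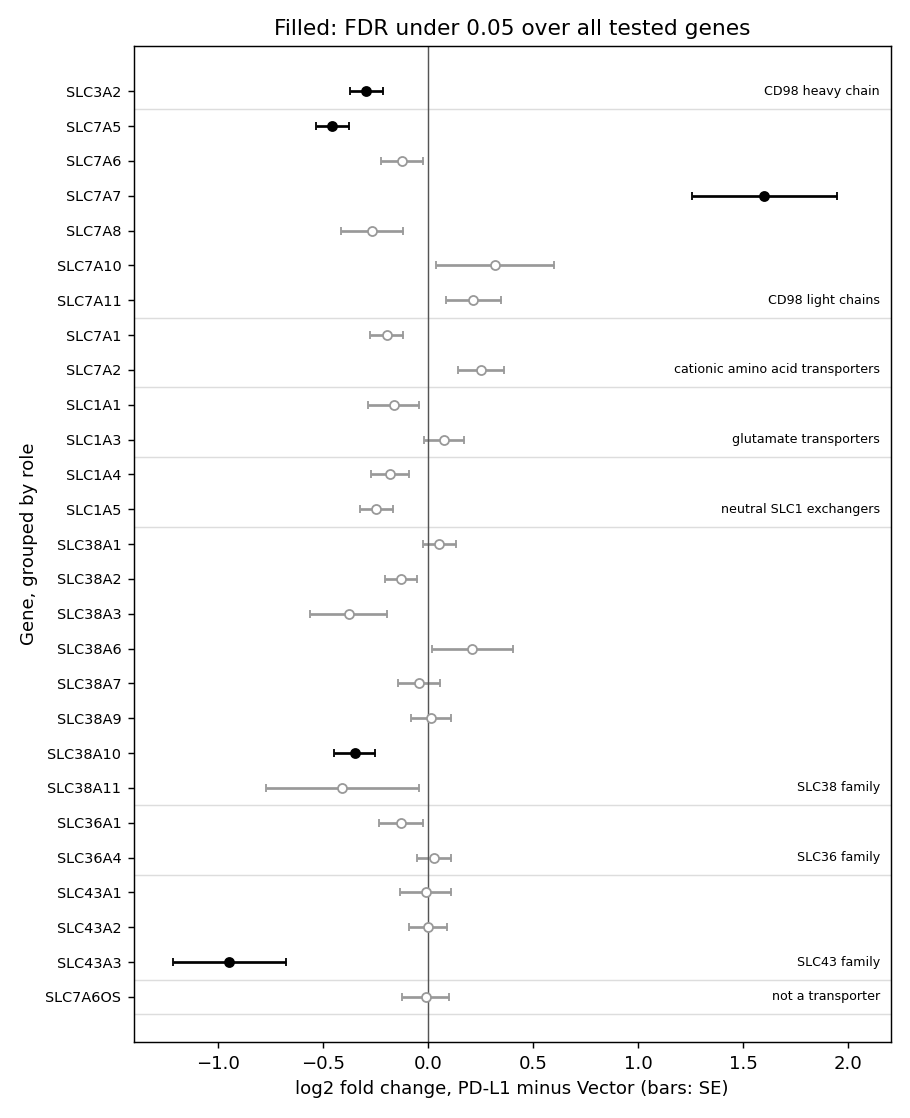
Log2 fold change (PD-L1 minus Vector) with its SE for the 27 tested genes, grouped by role, with filled points for FDR under 0.05. SLC7A7 stands alone on the right, SLC43A3 is at -0.95, and the other 25 genes lie between -0.46 and 0.32.

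The CD98 heavy chain and its main light chain both fell. SLC7A5 (ENSG00000103257) was at 615, 698 and 677 CPM in PD-L1 dishes 1 to 3, against 896, 892 and 941 CPM in Vector dishes 1 to 3. Every PD-L1 dish lay below every Vector dish, by more than the range within either group. It was 1.37-fold lower, with a log2 fold change of -0.46 ± 0.08 (SE) and an edgeR adjusted p of 0.00296. SLC7A5 alone among the members was called under all 19 settings tried, with log2 fold changes of -0.49 to -0.40 when any 1 dish was left out. Its transcript has 61.1% GC, and the GC and length offset gave a log2 fold change of -0.29 (adjusted p = 0.00558 by edgeR). The pseudogene copy SLC7A5P1 held 82, 68 and 87 counts in PD-L1 dishes and 91, 103 and 67 in Vector dishes, few beside the 11321 to 12646 counts of SLC7A5 in PD-L1 dishes and 17487 to 19465 in Vector dishes. How the counting treated reads that match both is not given in the sources.

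SLC3A2 (ENSG00000168003) was at 313, 318 and 357 CPM in PD-L1 dishes, against 389, 409 and 413 CPM in Vector dishes. The groups did not overlap, and PD-L1 dish 3 was the closest to the Vector dishes. It was 1.23-fold lower (log2 fold change -0.29 ± 0.08, edgeR adjusted p = 0.0301). Leaving out any of the other 5 dishes ended the call, with adjusted p of 0.0764 to 0.167, while leaving out PD-L1 dish 3 gave 3.1e-04. Upper-quartile scaling also ended it (adjusted p = 0.0534). The ratio of SLC7A5 to SLC3A2 per kb was 0.963, 1.08 and 0.928 in PD-L1 dishes and 1.13, 1.07 and 1.12 in Vector dishes. These ratios overlapped between groups.

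**Figure D3:**
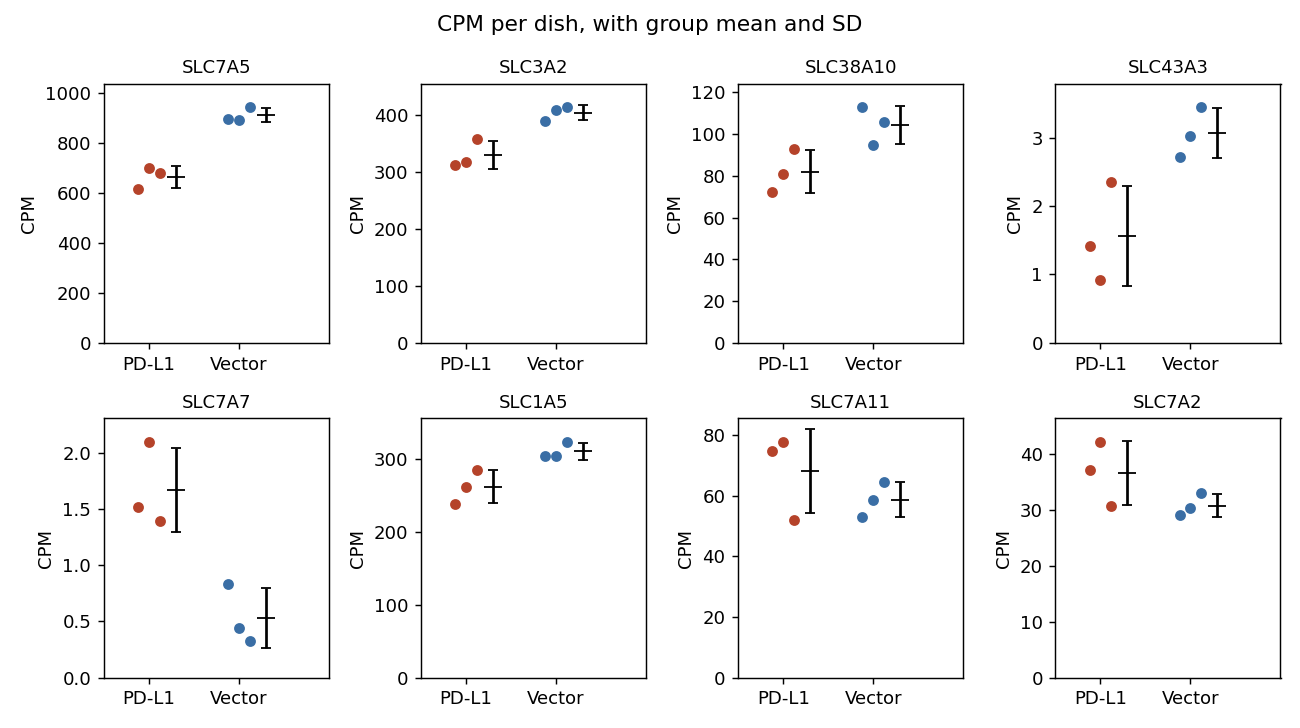
CPM in each dish (points) with the group mean and SD (bars) for the 5 called genes and for SLC1A5, SLC7A11 and SLC7A2, PD-L1 left of Vector. SLC7A5 shows a gap between groups, while PD-L1 dish 3 lies within or next to the Vector range for SLC7A11 and SLC7A2.

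One low-level light chain moved the other way. SLC7A7 (y+LAT1, ENSG00000155465), which with CD98 exchanges cationic for neutral amino acids and is known mainly from kidney, gut and macrophages, had 31, 34 and 26 counts in PD-L1 dishes and 18, 9 and 6 in Vector dishes. As CPM these were 1.51, 2.09 and 1.39 in PD-L1 dishes, against 0.828, 0.440 and 0.323 in Vector dishes. All PD-L1 dishes were above all Vector dishes, and Vector dish 1 was the highest of its group. SLC7A7 rose 3.03-fold (log2 fold change 1.60 ± 0.34, edgeR adjusted p = 0.0111). The call ended narrowly without Vector dish 2 (adjusted p = 0.05005) and held without any other single dish. SLC7A7 is also expressed by macrophages, whose marker list is given above, and the part of that list in this result was not tested.

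Promoter sequences of SLC7A5 and SLC7A7 are shown because these CD98 light chains changed in opposite directions. They are the 250 bases before a RefSeq start on GRCh38.p14, read 5′ to 3′ on the minus strand, with the E-box CACGTG, a palindrome bound by MYC and TFE proteins, in capitals. The SLC7A5 window is chr16:87869508-87869757, the 1 start listed for this gene. The SLC7A7 window is chr14:22815872-22816121, which is 1 of 3 starts listed and the only one of them with CACGTG.
SLC7A5: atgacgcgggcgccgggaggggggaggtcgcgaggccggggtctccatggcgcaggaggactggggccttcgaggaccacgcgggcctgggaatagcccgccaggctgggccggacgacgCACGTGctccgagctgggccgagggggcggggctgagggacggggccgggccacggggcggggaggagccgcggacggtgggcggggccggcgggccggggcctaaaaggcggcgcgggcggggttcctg
SLC7A7: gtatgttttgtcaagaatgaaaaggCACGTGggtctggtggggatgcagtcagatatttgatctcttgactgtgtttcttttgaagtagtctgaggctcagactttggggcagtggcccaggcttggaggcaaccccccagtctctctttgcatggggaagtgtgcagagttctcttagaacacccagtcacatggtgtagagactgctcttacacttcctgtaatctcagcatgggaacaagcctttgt
The E-box lies 130 bases before the SLC7A5 start and 225 bases before this SLC7A7 start, counted from its first base. Windows were found for 31 of the 40 transporters, 53 in all, and 8 of them (15.1%) held CACGTG, against 6.34% of 35116 RefSeq windows of this length. The C/EBP-ATF element TGATGNAA, searched on both strands, was in 2 of the 53 windows (3.77%), 1 of SLC1A3 and 1 of SLC1A5, against 3.14% of all windows. The 3 windows of SLC3A2 and the 1 of SLC38A10 held neither motif. A match describes these letters only and is not a measured binding site.

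The other light chains did not pass the test. SLC7A11 was at 74.6, 77.7 and 52.1 CPM in PD-L1 dishes, against 53.0, 58.6 and 64.4 CPM in Vector dishes. PD-L1 dishes 1 and 2 were above the Vector dishes and dish 3 was below them. The log2 fold change was 0.22 ± 0.13 (edgeR adjusted p = 0.345), and leaving out PD-L1 dish 3 gave 0.38 (adjusted p = 0.00161). SLC7A6 (y+LAT2), a broadly expressed relative of SLC7A7, averaged 38.8 ± 5.35 CPM with PD-L1 and 42.4 ± 2.14 CPM with Vector. SLC7A8 (LAT2), which carries neutral amino acids, averaged 10.6 ± 0.66 CPM with PD-L1 and 12.8 ± 2.59 CPM with Vector, and SLC7A10 (Asc-1), a carrier of small neutral amino acids, averaged 1.19 ± 0.03 and 0.95 ± 0.24 CPM in the same groups. SLC7A5 made up 88.1, 89.3 and 91.2% of the summed light-chain CPM per kb in PD-L1 dishes and 92.3, 92.6 and 92.2% in Vector dishes. The other 5 light chains together held 11.9, 10.7 and 8.83% in PD-L1 dishes and 7.71, 7.38 and 7.75% in Vector dishes, without overlap. As SLC7A5 is most of the sum, its fall alone raises this share. The share therefore does not show that the other light chains rose.

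**Figure D4:**
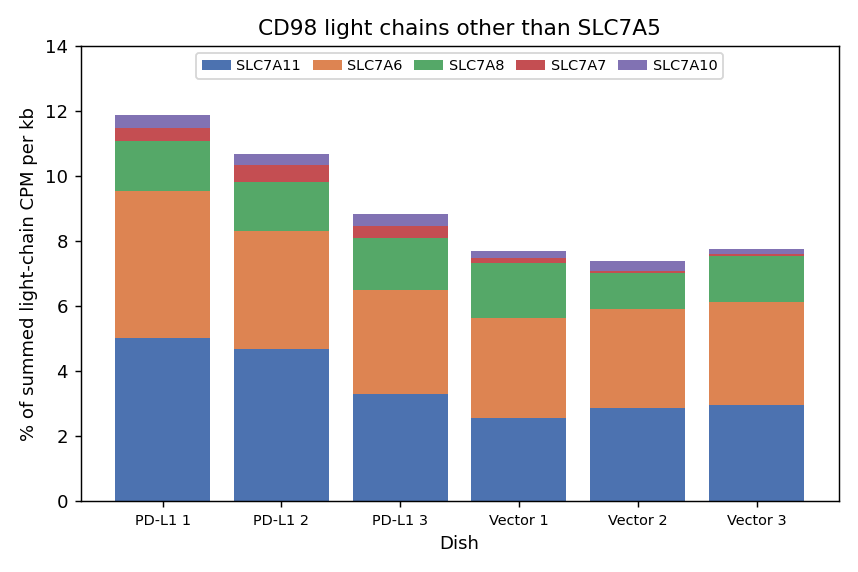
Share of the summed CD98 light-chain CPM per kb held by the 5 light chains other than SLC7A5, in each dish, as stacked bars from 0. The stacks reach 8.83 to 11.9% in PD-L1 dishes and 7.38 to 7.75% in Vector dishes, with SLC7A11 and SLC7A6 the thickest layers. A fall of SLC7A5, which is most of the sum, raises these shares by itself.

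Among the cationic amino acid transporters, which import arginine and lysine, the ubiquitous SLC7A1 (CAT-1) was at 165, 173 and 154 CPM in PD-L1 dishes, against 185, 177 and 202 CPM in Vector dishes. The groups did not overlap, but the gene did not pass the test (log2 fold change -0.20 ± 0.08, edgeR adjusted p = 0.139). SLC7A2 (CAT-2), the inducible relative, was at 37.1, 42.1 and 30.7 CPM in PD-L1 dishes, against 29.04, 30.3 and 32.9 CPM in Vector dishes. PD-L1 dish 3 lay within the Vector range. Its log2 fold change was 0.25 ± 0.11 (edgeR adjusted p = 0.181), and it passed with 0.36 (adjusted p = 0.00487) when PD-L1 dish 3 was left out, and with the GC and length offset (adjusted p = 0.0356).

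In the SLC1 family, the exchangers of neutral amino acids were lower in every PD-L1 dish than in any Vector dish without passing the test. Over all tested genes, called or not, 15.5% were lower in this way. SLC1A5 was at 238, 261 and 284 CPM in PD-L1 dishes, against 304, 303 and 323 CPM in Vector dishes. Its log2 fold change was -0.25 ± 0.08, and its adjusted p was 0.0731 by edgeR and 0.0367 by DESeq2. Leaving out PD-L1 dish 3 gave 0.00173 by edgeR. The GC and length offset gave -0.12 (adjusted p = 0.182). SLC1A4 (ASCT1), which carries serine and alanine, was at 29.3, 33.5 and 28.3 CPM in PD-L1 dishes and 35.9, 33.6 and 33.8 CPM in Vector dishes. The glutamate transporters overlapped between groups. SLC1A3 (GLAST), the astrocytic form expressed in U251, was at 25.1, 23.1 and 21.3 CPM in PD-L1 dishes and 22.0, 21.6 and 22.3 CPM in Vector dishes, a log2 fold change of 0.08 ± 0.09 (edgeR adjusted p = 0.667). SLC1A1 (EAAC1), the neuronal form, averaged 9.30 ± 0.56 CPM with PD-L1 and 10.4 ± 0.96 CPM with Vector.

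In the SLC38 family 1 of 8 tested members changed (12.5%, against 8.75% of all tested genes). SLC38A10 (ENSG00000157637), an intracellular member reported to carry glutamine and other amino acids, was at 72.4, 80.7 and 93.1 CPM in PD-L1 dishes, against 113, 94.8 and 106 CPM in Vector dishes. The groups did not overlap, with PD-L1 dish 3 close to Vector dish 2. It fell 1.27-fold (log2 fold change -0.35 ± 0.10, edgeR adjusted p = 0.0398). This transcript has the highest GC content of the 41 members, 64.3%, and the GC and length offset gave a log2 fold change of -0.17 (adjusted p = 0.0522). The call held on leaving out Vector dish 2 or PD-L1 dish 3 (log2 fold changes of -0.41 and -0.45) and ended on leaving out any other dish (adjusted p of 0.0935 to 0.206). TMEM104, the further gene of this family by its RefSeq name, was at 25.1, 26.5 and 25.3 CPM in PD-L1 dishes and 38.2, 31.4 and 33.1 CPM in Vector dishes. It fell 1.34-fold (edgeR adjusted p = 0.0137), a call that ended without PD-L1 dish 1 (0.0596) or Vector dish 1 (0.0899). The GC and length offset gave TMEM104 a log2 fold change of -0.25 (adjusted p = 0.0273), against -0.42 without it.

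The abundant system A carriers, which accumulate glutamine and alanine with sodium, overlapped between groups. SLC38A1 was at 310, 305 and 272 CPM in PD-L1 dishes and 266, 297 and 294 CPM in Vector dishes. Its log2 fold change was 0.05 ± 0.08 (edgeR adjusted p = 0.735). SLC38A2 (SNAT2), which is induced when amino acids are scarce, was at 203, 197 and 177 CPM in PD-L1 dishes and 199, 214 and 217 CPM in Vector dishes. It did not pass the test with a log2 fold change of -0.13 ± 0.08 (edgeR adjusted p = 0.340), but passed with the GC and length offset (-0.19, adjusted p = 0.0165). These 2 genes lie next to each other, with SLC38A4, in RefSeq's gene order. SLC38A3, a system N carrier of glutamine, was at 2.98, 3.64 and 3.75 CPM in PD-L1 dishes, against 5.38, 3.91 and 4.09 CPM in Vector dishes. These groups did not overlap, with an edgeR adjusted p of 0.224. The lysosomal SLC38A9 was at 28.5, 26.7 and 26.2 CPM in PD-L1 dishes and 24.4, 29.5 and 27.1 CPM in Vector dishes, a log2 fold change of 0.01 ± 0.09. SLC38A7, a lysosomal glutamine exporter, had -0.04 ± 0.10. SLC38A6 and SLC38A11 were at or under 3.48 CPM in every dish and had adjusted p of 0.550 and 0.533.

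Of the SLC43 family, SLC43A3 (ENSG00000134802) fell. It is known as a carrier of purine nucleobases. Its level was 1.42, 0.924 and 2.36 CPM in PD-L1 dishes, against 2.72, 3.03 and 3.45 CPM in Vector dishes. The groups did not overlap, and PD-L1 dish 3 was the highest of its group. It was 1.93-fold lower (log2 fold change -0.95 ± 0.27, edgeR adjusted p = 0.0434), and -1.35 on the log2 scale without PD-L1 dish 3. The call was lost on leaving out any dish other than PD-L1 dish 3 (adjusted p of 0.0977 to 0.155) and in DESeq2 (0.0556). Its relatives SLC43A1 (LAT3) and SLC43A2 (LAT4), facilitators of leucine transport, had log2 fold changes of -0.01 ± 0.12 and -0.0001 ± 0.09. SLC36A1, which is proton-coupled and lysosomal, and its relative SLC36A4 had -0.13 ± 0.10 and 0.03 ± 0.08. SLC7A6OS, averaging 11.5 ± 0.91 CPM with PD-L1 and 11.6 ± 0.36 CPM with Vector, overlaps SLC7A6, and without strand information reads of such partners cannot be separated. Among the called genes, SLC7A5 and SLC38A10 overlap genes with clone names on the opposite strand in GENCODE 29. On the same strand, SLC7A5 overlaps MIR6775 and SLC43A3 overlaps AP000781.2.

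Summed over the 40 transporters, CPM was 2331, 2459 and 2384 in PD-L1 dishes, against 2742, 2791 and 2903 in Vector dishes. SLC7A5 accounted for 615 to 698 CPM of the sum in PD-L1 dishes and 892 to 941 CPM in Vector dishes. The median member differed from the Vector mean by -0.07, -0.01 and -0.16 on the log2 scale in PD-L1 dishes 1 to 3, and the median of all tested genes by 0.01 in each.

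**Figure D5:**
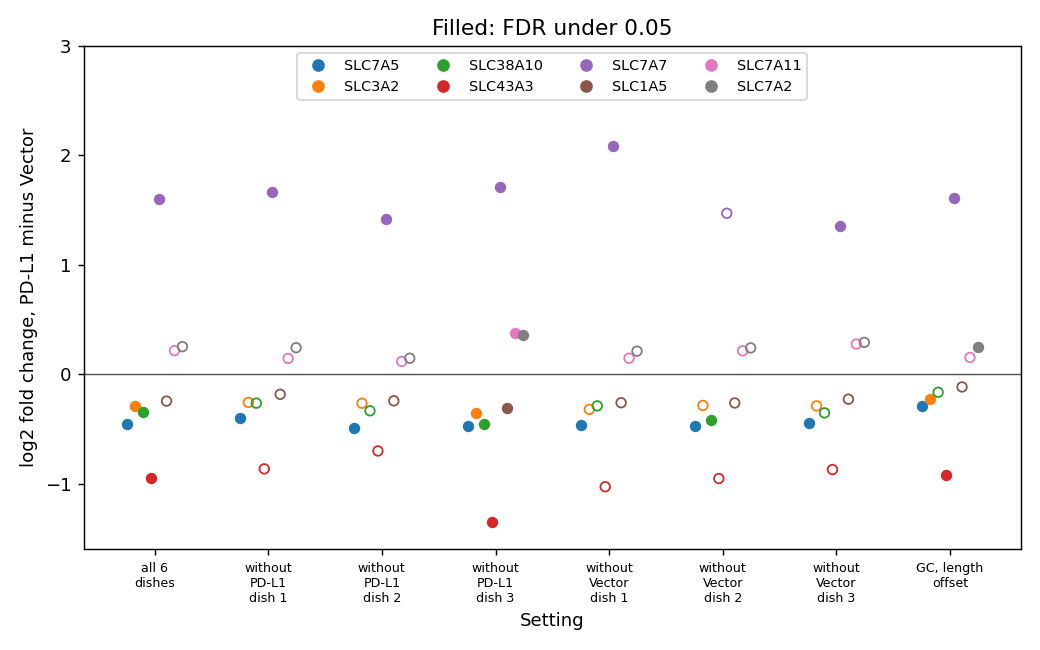
Log2 fold change (PD-L1 minus Vector) of 8 genes with all 6 dishes, without each dish in turn and with the GC and length offset, filled where FDR is under 0.05. SLC7A5 is filled in every column, SLC7A7 in every column but that without Vector dish 2, and SLC7A11 only without PD-L1 dish 3.

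Genes that act on amino acids after uptake were examined as lists. The amino acid response is the program that the transcription factor ATF4 drives, and it includes enzymes of serine and asparagine synthesis. Of its 20 genes 0 passed in edgeR, 0 in DESeq2, 0 in limma-voom and 1 at an unadjusted edgeR p under 0.05. Over all genes, 8.75% passed in edgeR, 9.26% in DESeq2 and 1362 of 15818 in limma-voom. An unadjusted edgeR p under 0.05 was found for 3734 of 15818. ATF4 averaged 1152 ± 93.0 CPM with PD-L1 and 1080.0 ± 43.3 CPM with Vector, and PHGDH, the first enzyme of serine synthesis, averaged 524 ± 33.5 and 551 ± 25.2 CPM in the same groups. Without PD-L1 dish 3, 4 of the 20 were lower (CEBPB, CHAC1, SHMT2 and TRIB3) and 0 higher, against 13.8% and 7.81% of all genes tested in that fit. In the list of amino acid sensing by mTORC1, 1 of 22 tested genes rose and 1 fell, a share of 9.09%, near the 8.75% of all tested genes. SESN1, a p53-inducible sestrin that restrains mTORC1, was at 44.3, 42.3 and 39.6 CPM in PD-L1 dishes, against 29.8, 32.0 and 32.8 CPM in Vector dishes. Its groups were well apart, and it rose 1.33-fold (edgeR adjusted p = 0.00795). The call ended without Vector dish 1 (0.0539). RPTOR, the mTORC1 scaffold raptor, fell 1.26-fold, averaging 62.2 ± 4.90 CPM with PD-L1 and 78.4 ± 8.63 CPM with Vector (edgeR adjusted p = 0.0407). The RPTOR call held on omitting PD-L1 dish 3 or Vector dish 2 and ended on omitting any other dish (adjusted p up to 0.217), and the GC and length offset gave -0.15 (0.0972). Without PD-L1 dish 3 this list had 2 higher and 2 lower genes, with 21.6% of all genes called.

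Of 16 enzymes of glutamine, glutamate and glutathione, 0 passed in edgeR (against 8.75% of all genes), 1 in DESeq2 (against 9.26%) and 0 in limma-voom. At an unadjusted edgeR p under 0.05 there were 2, against 3734 of all 15818 genes. GPX4, which uses glutathione to reduce lipid peroxides, averaged 537 ± 79.3 CPM with PD-L1 and 490.4 ± 36.6 CPM with Vector. GLUL, glutamine synthetase, averaged 504 ± 14.5 CPM with PD-L1 and 465 ± 10.1 CPM with Vector. In branched-chain amino acid breakdown 1 of 5 tested genes changed, against 8.75% of all tested genes. DBT, a subunit of the branched-chain ketoacid dehydrogenase, rose 1.26-fold, at 47.7, 42.7 and 39.4 CPM in PD-L1 dishes and 32.6, 34.4 and 36.0 CPM in Vector dishes (edgeR adjusted p = 0.0361). Its call ended on leaving out any dish other than PD-L1 dish 3 (adjusted p of 0.0798 to 0.204). The last list had 19 tested transporters of other families, for amino acids and related compounds such as creatine and glutathione. Of these, 0 passed in edgeR (against 8.75% of all genes), 1 in DESeq2 (SLC6A6, lower, against 9.26%) and 0 in limma-voom. At an unadjusted edgeR p under 0.05 there were 4, against 3734 of all 15818 genes. SLC6A8, the creatine transporter, averaged 221 ± 16.1 CPM with PD-L1 and 248 ± 48.4 CPM with Vector, and SLC25A39, a mitochondrial glutathione carrier, was at 214 ± 22.4 and 214 ± 9.09 CPM in the same groups. Without PD-L1 dish 3, 1 of these transporters was higher and 3 were lower, against 7.81% and 13.8% of all genes. The median log2 fold changes of the 5 lists, in the order given, were -0.09, 0.07, 0.05, 0.02 and -0.07.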

How the data were processed

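RNA of 6 dishes was measured, 3 of PD-L1 and 3 of Vector, grouped by sample title. Tools named, without their roles, in the submitters' processing notes are CASAVA 1.8, STAR 2.5.1b and HTSeq 0.6.0, with hg19 as build. For the annotation and the strand setting, nothing is given in the sources used here. Raw counts for each Ensembl ID were deposited by the authors. They also deposited normalized counts (a signal scale), equal to the count divided by 1 factor per dish.

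Gene symbols were looked up in a names table (51996 IDs) and GENCODE 29 (342 IDs). GENCODE 29, built on GRCh38, gave biotypes, overlaps, GC content and transcript length, and no coordinates. Counts were fitted over the whole table in edgeR 4.0.16 (R 4.3.3) with filterByExpr, TMM and the robust quasi-likelihood F test. Benjamini-Hochberg FDR under 0.05 was a call, and SE is the log2 fold change over the root of F. The script was tested on simulated data. Alternatives used DESeq2 1.42.0, limma 3.58.1 (voom, and trend on log2(normalized count + 1)), other scalings and filters, a replicate block, a GC and length offset (natural splines, 5 degrees of freedom), FDR 0.01 and leaving out each dish.

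Members and lists were chosen with earlier results of these data known. Any member could be named, with full values for called and abundant members and those fixed by name. Of each list, up to 4 called genes or 2 abundant ones are given. SLC7A1 and SLC7A2 have full values as the tested cationic transporters, and TMEM104 was chosen after its values were seen. The lists had 95 genes, of which CASTOR2 and SLC6A14 had no matching ID, as had the marker PECAM1. Depth was 15678989 to 22270509 counts per dish. Single-gene results for some genes are not reported here.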

Additional observations from a re-analysis of the deposited data

How the results depend on the processing

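SLC7A5 was called under every setting tried, and the 5 called transporters, TMEM104, SESN1, RPTOR and DBT kept their direction under each setting that tested them. The number of changed transporters, 5 with all dishes, was 3 with upper-quartile scaling, 2 with a mean of at least 5 CPM, which leaves SLC7A7 and SLC43A3 untested, 3 with the GC and length offset plus the replicate block, and 1 at an FDR of 0.01. Leaving out 1 dish gave 2 to 8, and the offset without PD-L1 dish 3, chosen after seeing the data, gave 8. Over all genes the count was 1384 (82.3% lower), against 2323 (58.9% lower) with the offset, 1394 (72.8% lower) with upper-quartile scaling, 530 at an FDR of 0.01, 545 to 3512 without 1 dish and 3593 for the added setting. Over the 5 related lists, 3 genes changed, against 5 in DESeq2, 9 without a low-count filter, 8 with the offset, 1 at an FDR of 0.01, 0 to 15 without 1 dish and 13 for the added setting. The cause of these shifts was not tested.

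Replicate numbers were shared between groups but did not pair the dishes. Deviations of same-numbered dishes correlated at -0.21 to -0.05, and 0 of 6 dishes correlated best with its own number. With the replicate number as a block, 4 transporters (SLC3A2 not among them, adjusted p = 0.0887 by edgeR), 1447 genes overall and 4 list genes were called. Depth limits the 14 untested members, and SLC7A7 and SLC43A3 rest on 6 to 34 and 15 to 64 counts per dish.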
